A study of Drosophila melanogaster with 12 samples.

Results

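The cytochrome P450 (Cyp) genes described here were 74 genes of Drosophila melanogaster, taken from the 10844 genes that had a probe set with a single symbol on the array. A gene was included when its symbol was Cyp followed by digits, 1 lower-case letter and digits, as in Cyp18a1. Where a gene had several probe sets, which was so for 4 of the 74, the brightest probe set, by its mean over all arrays, was used. The rule left out the P450 genes named for their mutants, such as the ecdysteroid-making spo, phtm, dib, sad and shd, and 6 genes with 2 letters in the symbol, such as Cyp4ac1; these are given only as related genes. Measured values entered only the choice of probe set.

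Cytochrome P450 enzymes are heme proteins that insert an oxygen atom into small lipophilic molecules, with electrons delivered by partner proteins such as cytochrome b5 or, for the mitochondrial enzymes, ferredoxins. Insect P450 genes fall into the CYP2, CYP3, CYP4 and mitochondrial clans. Some members make or remove hormones, some build the wax of the cuticle, and many others, often in clusters of neighbouring copies, are induced by or break down plant toxins and insecticides. In the adult head they are known from fat body, cuticle-forming cells, glia and the support cells of the antenna.

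The samples were heads of adult y w; tim01 flies, which lack working TIM protein and so have no molecular clock, collected in darkness. The flies were reared at 25 °C, were moved as early pupae into a daily temperature cycle (12 h cold at 18 °C, then 12 h warm at 25 °C), and were harvested as adults every 4 h on the last day of the thermocycle (CA) and on the next day at constant 25 °C (AA). The groups, of 3 arrays each, were the CA cold phase (2, 6 and 10 h, at 18 °C), the CA warm phase (14, 18 and 22 h, at 25 °C), the AA subjective cold phase and the AA subjective warm phase (the same hours, all at 25 °C). Each array was 1 hour of 1 day, and the labels do not say that arrays came from separate cultures, so every p value measures a difference only against the spread between these arrays. The CA and AA days also differ in date of harvest, age of the flies and recent temperature, which cannot be told apart. Every fly carried tim01, so no array shows a head with a working clock.

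Values are log2 signals from RMA, a method that corrects background, gives all arrays the same distribution and summarises the probes of a probe set. A change shared by most transcripts is therefore not visible, and signals of different probe sets are not compared with each other. With 12 arrays, precision is limited by their number. The arrays had nearly equal medians, between 5.18 and 5.22. Head tissue was represented by the photoreceptor genes Arr1, Arr2, trp, trpl and inaD, the 5 measured of 11 listed. None of them was below 8.78 on any array. Of 7 listed neuron genes 6 were measured, with signals between 3.60, for para, and 7.47, for nSyb. The heads had been obtained by breaking frozen flies and sieving, and some marker genes of the gut were raised on the CA 6-h, AA 2-h and AA 6-h arrays. The CA 18-h array stood apart, with a mean correlation of 0.984 to the other arrays, against 0.991 to 0.994 for those, and a mean spike-in signal of 7.91, against 8.65 to 9.13. Several results that rest on these 4 arrays are given below also without them.

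P450 genes passed 2 lines of signal about as often as all genes did. Of the 74 genes, 60 were above the 20th percentile of the array on all 12 arrays, which is 81.1% beside 78.3% of all genes. A stricter line was the brightest of the 23 control probe sets for bacterial, mouse and yeast sequences that had not been spiked in. By this line 38 genes (51.4%, beside 49.0% of all genes) were above background on all 12 arrays, 9 on some of them and 27 on none. The CYP3 clan supplied 23 of its 37 genes to the 38, the CYP4 clan 11 of 26, the mitochondrial clan 2 of 7 and the CYP2 clan 2 of 4.

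Genes known from resistance to insecticides or plant toxins are described first. Cyp6g1, which confers resistance to DDT and neonicotinoids when overexpressed, lay between 7.06 and 7.92. Cyp6a2, which can metabolise DDT, lay between 6.37 and 6.69. Cyp28d1, linked to nicotine resistance, lay between 9.67 and 10.55. Its neighbour Cyp28d2, named here for its place, was above the 20th percentile on 1 array only and never above all controls. Cyp12a4, a mitochondrial enzyme that confers lufenuron resistance when overexpressed, lay between 6.995 and 7.60. Genes with known roles in the head or its cells were also clear of the controls on all 12 arrays. Cyp6a20, expressed in antennal support cells and known for its effect on aggression, lay between 6.68 and 7.24. Cyp4d21, a male-enriched gene of the head fat body that takes part in courtship, lay between 5.61 and 7.17, and Cyp4g15, described from the nervous system, between 8.28 and 8.70.

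The genes that gave no signal above the 20th percentile on any array were Cyp310a1, Cyp312a1, Cyp313a2, Cyp313a5, Cyp316a1, Cyp4d14, Cyp4p3, Cyp6a14, Cyp6a17 and Cyp9h1. Cyp6a17, known for its role in temperature preference, stood between 2.21 and 2.55; it was singled out after its values were seen. For genes at this level, a difference between groups is not readable. Cyp303a1, needed for sensory bristles, lay between 4.75 and 5.20, and Cyp301a1, needed for the adult cuticle, between 3.78 and 4.04.

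The signals of most P450 genes moved little over the 2 days. The range of a gene over the 12 arrays had a median of 0.42, beside 0.39 over all genes. Among the 38 members above every unspiked control on all 12 arrays, the median was 0.52. Over all members the range went from 0.17 for Cyp6v1 to 4.55 for Cyp4g1. The heat map of all members shows this, with most rows pale and a few cells strongly coloured.

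**Figure D1:**
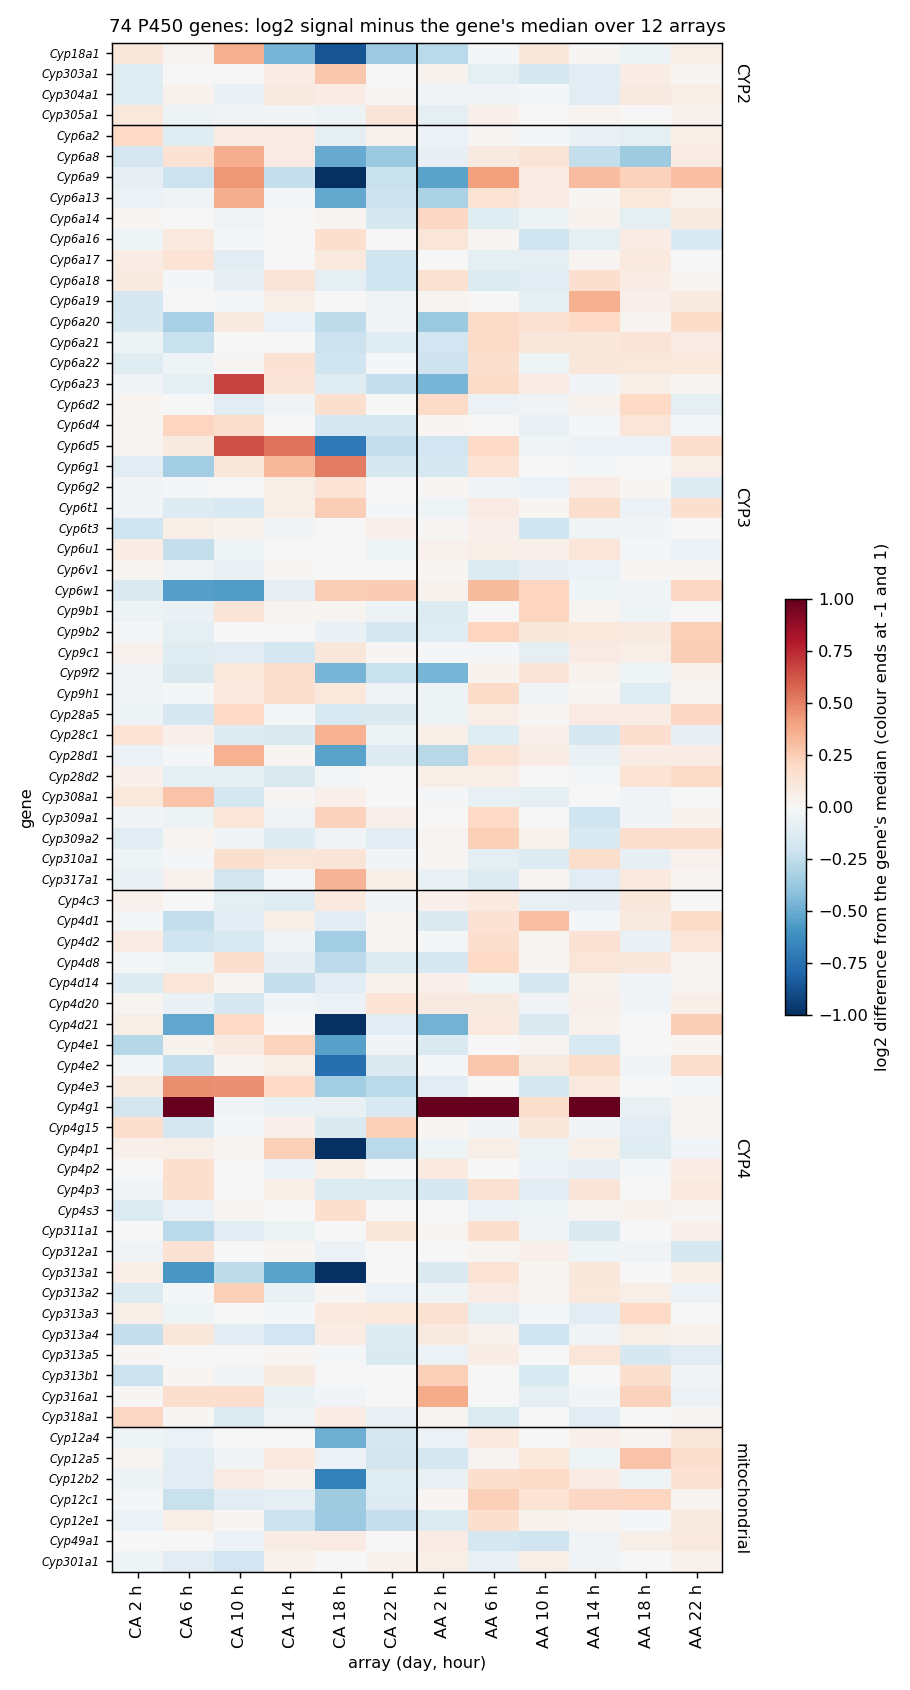
Log2 signal of each of the 74 P450 genes (rows, by clan) on each of the 12 arrays (columns, CA day left of AA day), as the difference from the gene's own median; the colour scale ends at -1 and 1. Cyp4g1 is high on 4 arrays, with signals of 8.29, 7.87, 9.05 and 6.17, and the CA 18-h column holds the lowest value of 20 genes.

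The CA cold and warm phases ask which transcripts follow the temperature itself. No P450 gene passed an adjusted p of 0.05 in limma, where 1 of 13966 probe sets (0.00716%) did. At an unadjusted p under 0.05 there were 10 P450 genes, 7 higher and 3 lower in the cold, which is 13.5% of them beside 8.15% of all probe sets (4.07% higher and 4.07% lower). In all, 44 genes were higher and 30 lower in the cold phase, with a median difference of 0.04, beside -0.01 over all genes. Among the 63 genes with a mean above the 20th percentile of the arrays, 35 were higher and 28 lower, with a median of 0.01. In the CYP4 clan 19 of 26 genes were higher, in the CYP3 clan 19 of 37, in the mitochondrial clan 5 of 7 and in the CYP2 clan 1 of 4. Of the 26 CYP4 genes, 6 were above the 20th percentile on 0 arrays, a level at which a difference is not readable.

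Cyp18a1, the hydroxylase that inactivates ecdysteroid hormones, had the lowest p of the family. Its signals were 6.78, 6.70 and 7.02 in the CA cold phase, against 6.20, 5.80 and 6.31 in the CA warm phase. Every cold array was above every warm array, and the mean was 6.83 ± 0.17 in the cold and 6.10 ± 0.27 in the warmth (SD, n = 3 each). The difference of 0.73 (SE 0.13) did not pass the adjustment (adjusted p = 0.129 in limma). On the AA day, with no temperature step, Cyp18a1 read 6.40, 6.66 and 6.78 in the subjective cold phase, against 6.68, 6.62 and 6.73 in the subjective warm phase. These groups overlapped, with a difference of -0.06 (SE 0.13). The CA difference minus the AA difference was 0.79 (SE 0.19, adjusted p = 0.485 in limma). The lowest of the 12 values was that of the CA 18-h array, and without it the CA difference was 0.58.

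Cyp6w1, a gene found overexpressed in DDT-selected strains, ran the other way. It had 8.23, 7.82 and 7.81 in the CA cold phase, against 8.29, 8.62 and 8.62 in the CA warm phase. The cold arrays were all below the warm arrays, by a small step at 2 and 14 h and a larger one at the later hours. The difference was -0.55 (SE 0.13, adjusted p = 0.276 in limma). On the AA day its values were 8.41, 8.69 and 8.59 in the subjective cold phase, against 8.33, 8.34 and 8.58 in the subjective warm phase, which overlapped. All 9 arrays at 25 °C, with a lowest value of 8.29, a median of 8.58 and a highest value of 8.69, were above the 3 arrays at 18 °C. The 18 °C mean was 7.96 ± 0.24 (SD, n = 3) and the 25 °C mean 8.50 ± 0.15 (SD, n = 9), a difference of -0.54 (SE 0.11, adjusted p = 0.143 in limma). No member passed in this comparison (0.0286% of probe sets did), and 6 had an unadjusted p under 0.05, beside 5.48% of probe sets, or 3 without the CA 6-h array. Cyp6w1 was the only member whose 18 °C and 25 °C arrays did not overlap, in either direction. Over all probe sets 0.773% lay wholly lower and 0.465% wholly higher at 18 °C.

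Cyp4e3, linked to pyrethroid tolerance in the renal tubule, had 4.66, 5.04 and 5.02 in the CA cold phase, against 4.77, 4.22 and 4.30 in the CA warm phase. The 2-h and 14-h values, the first of each phase, were out of order, and the other 4 arrays were apart. The difference was 0.47 (SE 0.13, adjusted p = 0.364 in limma). The signal was above the brightest unspiked control on 1 of the 12 arrays only. Leaving out the first array of each phase brought Cyp4e3 to 0.77 and Cyp6w1 to -0.80, both with an adjusted p of 0.037 in limma. On the CA day the temperature had changed 2 h before those arrays were taken. Over the 25 °C arrays Cyp4e3 ran between 4.22 and 4.77 with a median of 4.55.

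**Figure D2:**
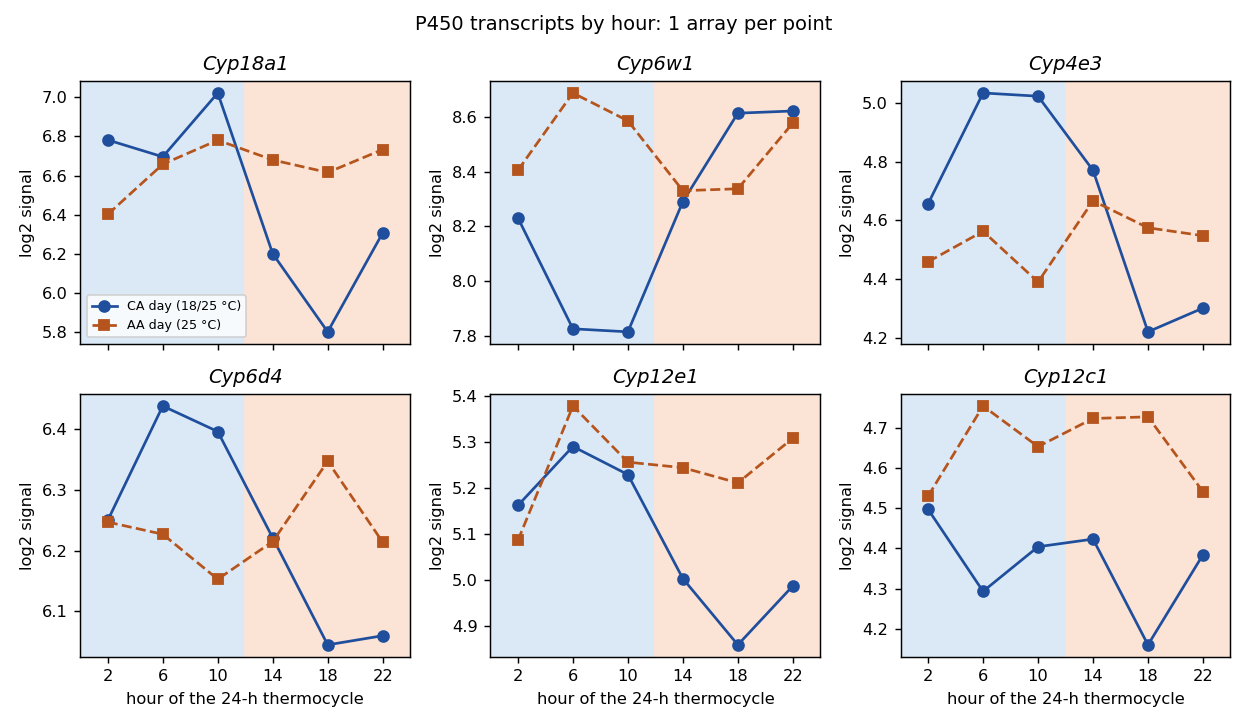
Log2 signal (vertical axis) of 6 P450 genes by hour of the thermocycle (horizontal axis), 1 array per point: circles, CA day; squares, AA day. Blue shading marks the cold phase (18 °C on CA, subjective on AA, at 25 °C) and orange the warm phase; Cyp18a1 is lowest at 5.80 on the CA 18-h array, Cyp6w1 is lowest on the 18 °C arrays, and Cyp12c1 is lower on every CA array than on every AA array.

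The remaining genes at an unadjusted p under 0.05 had smaller differences. Cyp12e1 (mitochondrial) was at 5.16, 5.29 and 5.23 in the CA cold phase, against 5.003, 4.86 and 4.99 in the CA warm phase, a difference of 0.28 (SE 0.08) between groups that did not overlap. Its signal was above the brightest unspiked control on 9 of the 12 arrays, and below it on the CA 18-h and CA 22-h arrays. Cyp6d4 had 6.25, 6.44 and 6.40 in the cold, against 6.22, 6.04 and 6.06 in the warmth, a difference of 0.25 (SE 0.08), again without overlap. Cyp6a8, linked to DDT resistance, had a difference of 0.38 (SE 0.16), Cyp6a13 of 0.33 (SE 0.15), Cyp6a9 of 0.59 (SE 0.26), Cyp6g1 of -0.34 (SE 0.15) and Cyp6t1 of -0.20 (SE 0.09). Adjusted p values for these genes were between 0.392 and 0.607 in limma. Without the CA 18-h array the difference was 0.27 for Cyp6a9, -0.20 for Cyp6g1, 0.20 for Cyp6a13 and -0.12 for Cyp6t1. Without the CA 10-h array it was 0.25 for Cyp6a8 and 0.19 for Cyp6a13. For Cyp6g1 it was -0.23 without the CA 6-h array and -0.54 without the CA 22-h array. The count of 10 genes at an unadjusted p under 0.05 became 5 without the CA 18-h array, 6 without the CA 10-h array and 6 without the AA 22-h array. In all, 6 genes lay wholly higher and 4 wholly lower in the cold (8.11% and 5.41% of members, beside 5.55% and 5.53% of all probe sets).

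On the AA day the subjective cold and warm phases, both at 25 °C, ask whether a difference outlasts the thermocycle. No P450 gene passed the threshold in limma (0% of all probe sets did), and 0 genes had an unadjusted p under 0.05, beside 4.55% of all probe sets. There were 27 genes higher and 47 lower, with a median of -0.02, the same as over all genes (-0.02). Cyp6a19 had the lowest p, with 3.75, 3.72 and 3.63 in the subjective cold phase, against 4.08, 3.78 and 3.81 in the subjective warm phase, a difference of -0.19 (SE 0.09). Its groups did not overlap, but the signal was near the 20th percentile of the arrays, and without the AA 14-h array the difference was -0.09. In the test of the CA difference against the AA difference, 0 genes passed the adjustment in limma (0% of probe sets) and 6 had an unadjusted p under 0.05 (8.11%, beside 7.9%), or 12 without the CA 14-h array. The plot of differences by clan shows the wider spread in the CA comparison.

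**Figure D3:**
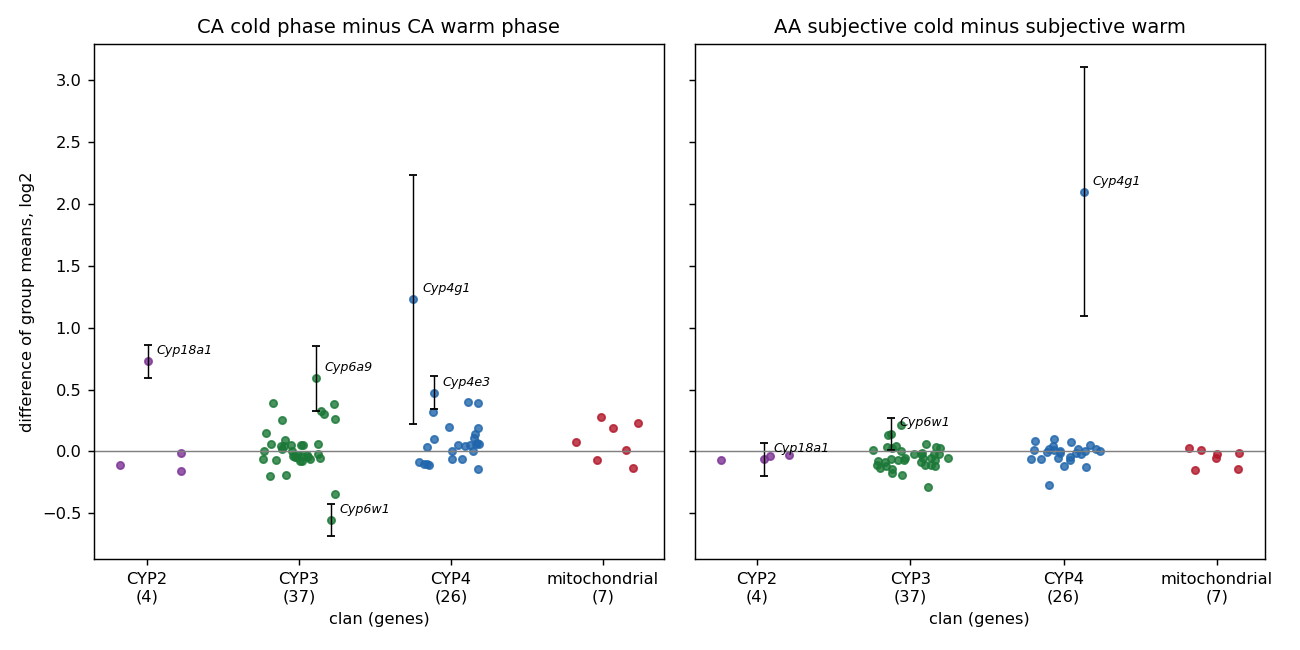
Difference of group means on the log2 scale (vertical axis) for each of the 74 P450 genes, by clan (horizontal axis), with CA cold minus CA warm at left and AA subjective cold minus AA subjective warm at right; bars on named genes are SE from limma. Cyp18a1 is at 0.73 and Cyp6w1 at -0.55 on the CA day, and Cyp4g1 has an SE of 1.01 in both.

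Between the days, P450 transcripts were more often lower than higher on the CA day. The comparisons with AA share arrays with those above and with each other. For the CA day against the AA day, 0 genes passed in limma (0% of probe sets), and 10 genes had an unadjusted p under 0.05, all lower on the CA day. This is 13.5% of members, beside 5.33% of all probe sets that were lower. The count rested on single arrays, with 3 genes in either direction without the AA 6-h array, 5 without the AA 22-h array, 6 without the CA 6-h array and 16 without the AA 2-h array. Over all members 28 were higher and 46 lower on the CA day, with a median difference of -0.04, beside -0.005 over all genes. The CA warm phase set against the AA subjective warm phase compares arrays that were all at 25 °C. Here 0 members passed in limma (0.0143% of probe sets did), and 10 members had an unadjusted p under 0.05, again all lower on CA, beside 8.18% of all probe sets. With the CA 18-h array left out, 6 were at that level, and likewise 6 without the AA 22-h array, while 22 were without the CA 14-h array. Groups did not overlap for 12 genes, all lower on CA (16.2% of members, beside 11.3% of all probe sets), and for 0 genes higher on CA (beside 8.37%). For the CA cold phase against the AA subjective cold phase, 0 members passed (0% of probe sets) and 3 had an unadjusted p under 0.05 (4.05%, beside 3.54%), or 7 without the CA 2-h array and 8 without the AA 2-h array.

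The mitochondrial clan had the lowest median in the CA warm against AA subjective warm comparison, -0.28 over 7 genes, of which 5 were lower. Without the CA 18-h array its median was -0.15, again the lowest of the 4 clans. Of its 7 genes, 2 were above every unspiked control on all 12 arrays. Another 4 were above every such control on 0 arrays, a level that allows no reading of small differences. Cyp12c1 was at 4.50, 4.29, 4.40, 4.42, 4.16 and 4.38 on the CA day, against 4.53, 4.75, 4.65, 4.72, 4.73 and 4.54 on the AA day, in order of hour. All 6 CA values were below all 6 AA values, the only member for which this was so, beside 0.243% of all probe sets that were wholly lower on CA. Its means were 4.36 ± 0.12 on CA and 4.65 ± 0.10 on AA (SD, n = 6 each), a difference of -0.29 (SE 0.07, adjusted p = 0.452 in limma). The signal was below the brightest unspiked control. Cyp12e1 differed by -0.30 (SE 0.08) between the warm phases, Cyp12a4 by -0.28 (SE 0.10) and Cyp12b2 by -0.31 (SE 0.15). Without the CA 18-h array Cyp12a4 was at -0.15 and Cyp12b2 at -0.10, and Cyp12e1 at -0.26. The CA 18-h and CA 22-h signals of Cyp12e1 were below the brightest unspiked control.

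In the CYP4 clan, Cyp313a1 had 8.43, 7.78, 8.11, 7.83, 7.18 and 8.36 on the CA day, against 8.22, 8.50, 8.38, 8.47, 8.36 and 8.43 on the AA day. The AA values stayed within a narrow band, and 4 of the 6 CA values were below all of them. The difference of days was -0.44 (SE 0.16, adjusted p = 0.487 in limma), and -0.29 without the CA 18-h array. Cyp18a1 was lower in the CA warm phase than in the AA subjective warm phase by a difference of -0.57 (SE 0.13, adjusted p = 0.175 in limma), and its 2 groups did not overlap. Cyp9b2, which has a second probe set, had a difference of days of -0.16 (SE 0.06) by both probe sets.

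The hour of day shared by both days was tested with an F test in limma over the 6 hours. No member passed (0% of probe sets), and 3 members, Cyp4g1, Cyp6a8 and Cyp28c1, had an unadjusted p under 0.05, which is 4.05% beside 2.97% of all probe sets. Cyp6a8 was at 6.81, 7.12, 7.34, 7.06, 6.47 and 6.60 by hour on CA and at 6.90, 7.07, 7.10, 6.74, 6.62 and 7.06 on AA. It was lowest at 18 h and highest at 10 h on both days. Spectral power, the part of a profile's variance over its 6 hours that a 24-h wave takes up, reached the smallest p its 60 distinct orders allow, 0.0167, for Cyp12e1 and Cyp6d4 on CA, and for Cyp4p2 on AA. This is 2 and 1 of 74 members, beside 1.68% and 1.51% of all probe sets. Spectral power was 0.990 for Cyp12e1, with a peak at 6.43 h, and 0.998 for Cyp6d4, with a peak at 7.65 h. The Cyp12e1 values of the CA 18-h and CA 22-h arrays were below the brightest unspiked control.

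Cyp4g1 had by far the largest range of the family. It encodes the decarbonylase that makes the cuticular hydrocarbons in oenocytes, cells under the cuticle of the abdomen. Its signal was 4.50, 8.29, 4.66, 4.62, 4.61 and 4.53 by hour on the CA day, and 7.87, 9.05, 4.85, 6.17, 4.61 and 4.70 on the AA day. It was thus high on the CA 6-h, AA 2-h and AA 6-h arrays, intermediate on the AA 14-h array and between 4.50 and 4.85 on the other 8. On each of those 8 arrays it was below the brightest unspiked control. The AA subjective cold phase was 2.10 (SE 1.01) above the AA subjective warm phase (adjusted p = 0.9997 in limma), and the CA cold phase was 1.23 (SE 1.01) above the CA warm phase (adjusted p = 0.813).

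Some markers of the gut were raised on the same 3 arrays. The trypsin gene betaTry was at 8.11, 8.37 and 8.16 on the CA 6-h, AA 2-h and AA 6-h arrays, and between 6.84 and 7.14 on the other 9. The digestive protease gene Jon65Aiv was at 7.96, 8.29 and 7.80, against 6.68 to 7.08, and alphaTry at 5.65, 5.79 and 6.39, against 4.66 to 5.06. The other measured gut markers, Jon25Bi, Jon99Ci, Jon44E and Jon66Ci, overlapped between these 3 arrays and the other 9. The AA 14-h array, with Cyp4g1 at 6.17, had betaTry at 7.07 and alphaTry at 4.76. Of the 9 listed gut markers 7 were measured, and their summed linear signal ran from 379 to 704 in the CA cold phase, against 389 to 435 in the CA warm phase, and from 356 to 838 in the AA subjective cold phase, against 386 to 415 in the AA subjective warm phase. The 8 measured accessory-gland genes of 10 listed summed to 89.9 to 144 in the AA subjective cold phase, against 94.3 to 98.5 in the AA subjective warm phase, and Acp63F was highest, at 4.86, on the AA 6-h array. The part of body pieces in the Cyp4g1 signal was not tested. Without these 3 arrays the AA difference of Cyp4g1 was -0.31 and the CA difference -0.01.

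**Figure D4:**
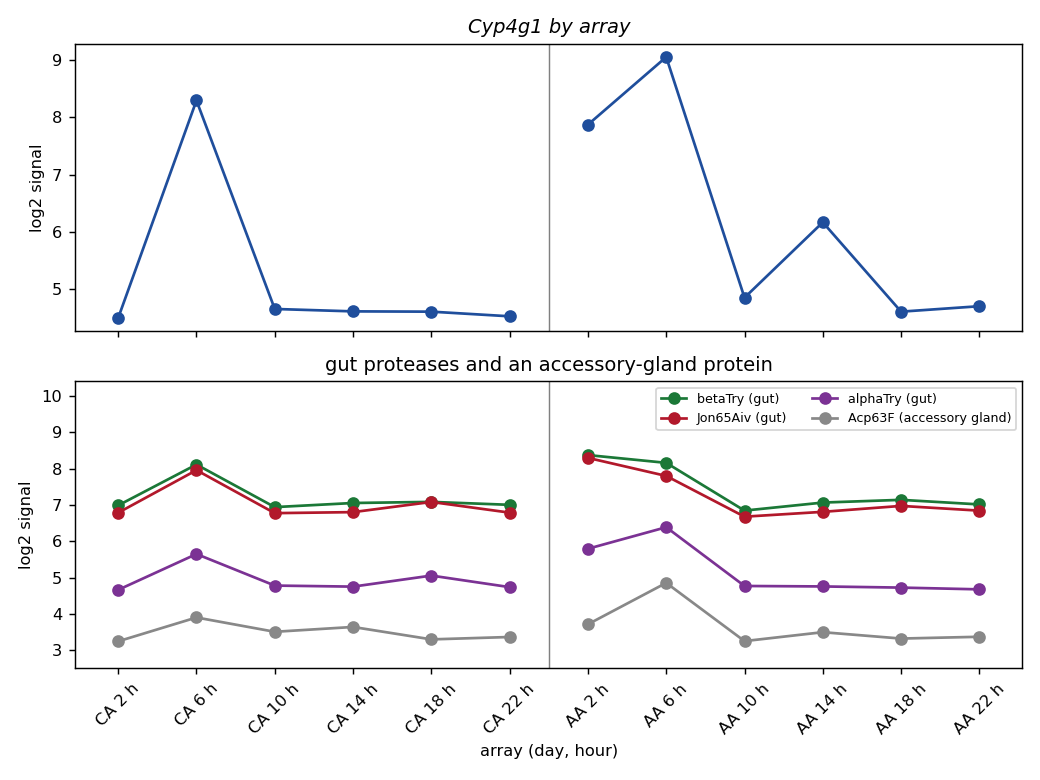
Log2 signal (vertical axes) by array (horizontal axis, CA day left of AA day) of Cyp4g1 (top) and of 3 gut protease genes and an accessory-gland gene (bottom). Cyp4g1 and the proteases are high on the CA 6-h, AA 2-h and AA 6-h arrays; on the AA 14-h array Cyp4g1 is at 6.17 and betaTry at 7.07.

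Other genes of hydrocarbon synthesis were read from a list. It held 8 genes, 7 of them measured, among them Desat1, Fad2 and eloF, which set the double bonds and chain length of the pheromones. Their median deviation from the gene's own mean was 0.0008 on the CA 6-h array, -0.03 on the AA 2-h array and -0.002 on the AA 6-h array. Among its members FASN2, a fatty acid synthase gene, was at 4.90, 4.83 and 4.76 on the CA 6-h, AA 2-h and AA 6-h arrays, against 4.37 to 4.82 on the other 9, and overlapped with them. No gene of the list passed the threshold in the CA comparison, and 1 had an unadjusted p under 0.05, spidey, with a difference of -0.35 (SE 0.11). Cyp4g15, the other gene of the Cyp4g subfamily, stayed between 8.28 and 8.70 over the 12 arrays.

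The CA 18-h array held the lowest value of 20 of the 74 P450 genes, or 27.0%, and of 14.1% of all genes; these counts were made after the array was seen to stand apart. It held the highest value of 9 members, or 12.2%, and of 20.7% of all genes. By more than 0.3 below every other array were 9 members (12.2%), beside 3.55% of all genes. Cyp4d21, the male-enriched gene of the head fat body, was at 5.61 there and between 6.41 and 7.17 elsewhere. Cyp4p1 was at 5.58 and otherwise between 6.34 and 6.85, and Cyp12b2 at 6.91 and otherwise between 7.46 and 7.77. Cyp6d5, a caffeine-inducible gene, was at 9.40 and otherwise between 9.87 and 10.76. Cyp4e2 was at 8.24 and otherwise between 8.75 and 9.26. Cyp6g1, by contrast, had its highest value there, 7.92, and otherwise lay between 7.06 and 7.74.

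Fat body genes also departed on that array. Fbp1 was at 8.46, against 6.39 to 6.69 on the other 11, and Fbp2 at 5.24, against 3.36 to 3.72; both encode fat body proteins. The lipoprotein gene apolpp was lowest there, at 9.77, against 10.17 to 10.83. The yolk protein genes Yp1, Yp2 and Yp3 were between 13.69 and 13.99 on all 12 arrays. The 7 measured fat body markers of 8 listed summed to 51170 to 52380 in the CA cold phase, against 47980 to 50850 in the CA warm phase. Most of this sum was the 3 yolk protein genes. The median deviation of the 7 genes from their own means was highest on the CA 18-h array, at 0.03, and lowest on the CA 14-h array, at -0.09. The list as a whole thus did not follow its sum. The part of fat body in the P450 values of this array was not tested. In heads, fewer cells of a type and less RNA per cell cannot be told apart. The labels do not give the sexes of the flies.

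The Cyp6a genes include a row of neighbours in the genome (RefSeq gene order, assembly Release 6 plus ISO1 MT). Members lay directly beside another member in 23 pairs of adjacent genes, which took in 36 of the 74 genes. Within the Cyp6a row, Cyp6a9, Cyp6a20 and Cyp6a21 follow each other. Cyp6a20 had 6.89, 6.72, 7.13, 6.99, 6.80 and 7.02 on the CA day, and 6.68, 7.24, 7.20, 7.24, 7.07 and 7.23 on the AA day. Cyp6a9 had 6.81, 6.68, 7.33, 6.66, 5.71 and 6.67 on the CA day, and 6.36, 7.31, 6.98, 7.20, 7.13 and 7.20 on the AA day. Cyp6a21 had 4.47, 4.30, 4.51, 4.53, 4.30 and 4.40 on the CA day, and 4.33, 4.71, 4.63, 4.63, 4.65 and 4.60 on the AA day. All 3 were low on the CA 18-h and AA 2-h arrays, Cyp6a20 and Cyp6a21 also on the CA 6-h array, and all were high on the AA arrays from 6 h on.

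Over the 12 arrays the correlation was 0.78 between Cyp6a9 and Cyp6a20 and 0.90 between Cyp6a20 and Cyp6a21, and 0.86 and 0.89 without the CA 18-h array. It was 0.23 between Cyp6a21 and the next gene, Cyp6a8. The arrays are shared by all these values, and the signals of Cyp6a21 were below the brightest unspiked control. Neighbouring copies are alike in sequence and may bind each other's probes; the probe sequences were not analysed here. Correlations of the 23 adjacent pairs ran from -0.65 (Cyp6a8 and Cyp317a1) to 0.90. Only 2 of the adjacent pairs had both genes above all controls, Cyp6a9 and Cyp6a20 at 0.78 and Cyp4p2 and Cyp4p1 at -0.19. The median of these 2 pairs was 0.30, and 0.39 without the CA 18-h array. The 703 pairs among the 38 genes above all controls had a median of 0.15, and 0.16 without that array. With only 2 adjacent pairs, the medians allow no comparison. The summed signal of markers of the antenna, where Cyp6a20 is expressed, was lowest on the 3 arrays with the lowest Cyp6a20 values. Of 8 listed antennal genes 7 were measured, and their summed linear signal was lowest on the CA 6-h (1474), AA 2-h (1570) and CA 18-h (1595) arrays, against 1673 to 2009 on the other 9. By group the sum ran from 1474 to 1791 in the CA cold phase, against 1595 to 1858 in the CA warm phase, and from 1570 to 1795 in the AA subjective cold phase, against 1816 to 2009 in the AA subjective warm phase. Most of the sum was Obp19d, an odorant-binding protein gene, at 10.36, 10.46 and 10.48 on those 3 arrays and between 10.57 and 10.85 on the others. The odorant co-receptor gene Orco lay between 4.56 and 4.80 and was highest on the CA 6-h array. The antennal genes Os-C, a5 and a10 were also highest there, and lush, like Obp19d, was lowest there. The median deviation of the 7 genes from their own means was 0.11 on the CA 6-h array, the highest of the 12. It was -0.01 on the AA 2-h array and 0.07 on the CA 18-h array, so the list as a whole did not follow its sum. The part of antennal tissue in the Cyp6a20 values was not tested. Cyp6a9 was lower in the CA warm phase than in the AA subjective warm phase by a difference of -0.82 (SE 0.26, adjusted p = 0.234 in limma), and -0.51 without the CA 18-h array.

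**Figure D5:**
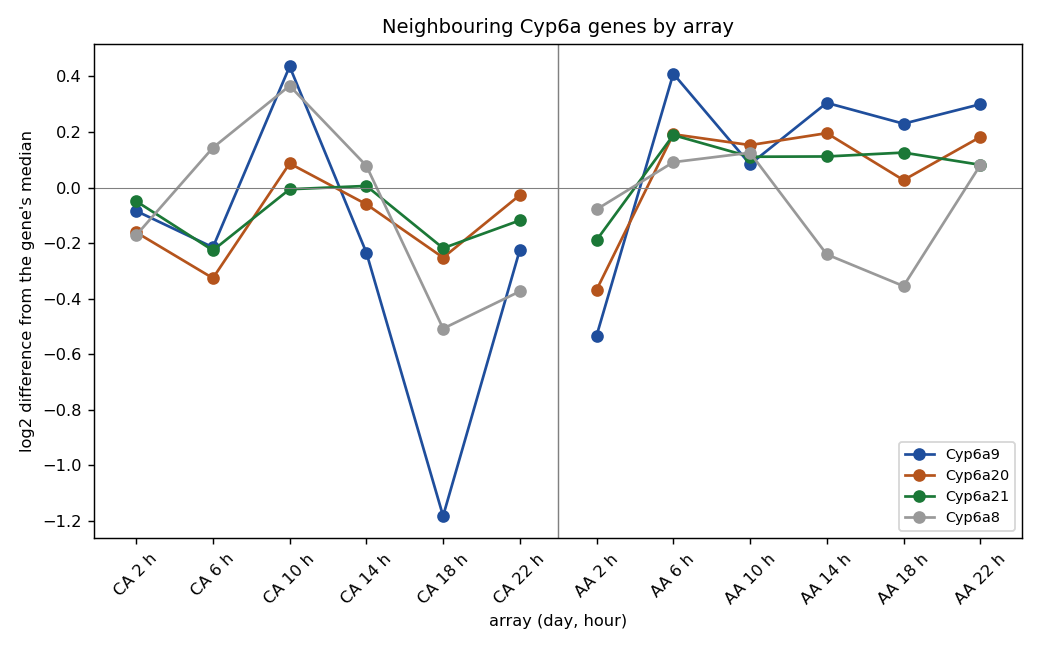
Log2 signal as the difference from the gene's own median (vertical axis) of 4 neighbouring Cyp6a genes on the 12 arrays (horizontal axis, CA day left of AA day). Cyp6a9, Cyp6a20 and Cyp6a21 are low together on the CA 18-h and AA 2-h arrays, while Cyp6a8 has a different profile, with a correlation of 0.23 to Cyp6a21.

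Genes that work with the P450 enzymes were read from lists chosen by function. Of 6 redox partners 4 were measured, and 0 passed the threshold in limma in the CA comparison. Cyt-b5, which donates electrons to many P450 enzymes, had 7.74, 7.54 and 7.64 in the CA cold phase, against 7.80, 8.12 and 7.80 in the CA warm phase. The cold arrays were all lower, with a difference of -0.27 (SE 0.11, adjusted p = 0.580 in limma). The cytochrome b5-related gene Cyt-b5-r and the ferredoxins Fdx1 and Fdx2 each had a range over the 12 arrays of less than 0.5.

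The ecdysteroid genes bear on Cyp18a1. Of 8 synthesis genes 6 were measured, with 3 higher and 3 lower in the CA cold phase, a median of -0.01 and 0 past the threshold or at an unadjusted p under 0.05. Of 8 genes for the ecdysteroid receptor and its early targets 6 were measured, with 3 higher and 3 lower, 0 past the threshold and 2 at an unadjusted p under 0.05. These 2 were nuclear factors of the response. The nuclear receptor gene ftz-f1 had 4.37, 4.30 and 4.50 in the CA cold phase, against 3.89, 4.02 and 4.20 in the CA warm phase, with no overlap and a difference of 0.35 (SE 0.11, adjusted p = 0.417 in limma). Eip93F had 5.07, 5.25 and 4.96 in the CA cold phase, against 4.80, 4.56 and 4.90 in the CA warm phase, with no overlap and a difference of 0.34 (SE 0.10, adjusted p = 0.398 in limma). For ftz-f1 the 18 °C arrays were 0.44 (SE 0.09) above the 25 °C arrays (adjusted p = 0.191 in limma). The signal of ftz-f1 was below the brightest unspiked control on every array, a level at which small differences allow no reading. Eip93F was above that control only on the CA 6-h and CA 10-h arrays.

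All 8 regulators of xenobiotic and juvenile hormone responses were measured, with 4 higher and 4 lower in the CA cold phase and 0 at an unadjusted p under 0.05. In the day comparison maf-S, the small Maf partner of the detoxification regulator cnc, had 6.89, 6.54, 6.82, 6.71, 6.54 and 6.86 on the CA day, against 6.76, 7.16, 7.19, 7.22, 7.04 and 7.22 on the AA day. The groups overlapped only through the AA 2-h array, and the difference was -0.37 (SE 0.09, adjusted p = 0.452 in limma). Of the 6 P450 genes with 2 letters in the symbol, all were measured and 0 passed the threshold in the CA comparison. Cyp4ac1 had its lowest value, 4.51, on the CA 18-h array and lay between 5.39 and 5.73 on the others, and Cyp4ac2 was lowest there as well, at 3.53, against 3.91 to 4.37 on the others.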

How the data were processed

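The 12 samples were hybridised to Affymetrix Drosophila Genome 1 arrays from RNA of heads of y w; tim01 flies. The deposited values were log2 signals that the authors made with RMA (background correction, quantile normalization, median polish); its version was not given in the sources used here. No further normalization was applied. Of 14010 probe sets, 44 controls were set aside and 13966 tested; 12443 had 1 gene symbol, 327 several and 1196 none, and symbols were updated through 12394 gene identifiers. Low signals were not filtered out, so all 74 members were tested.

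The members, gene lists, comparisons and naming rule were chosen with earlier results of these data known. The naming rule took the 10 members of lowest p between the CA phases, the 5 of lowest p in each other comparison, the 10 with the largest range and 17 members of known role; of its 37 genes the ones with the clearest values are described, and genes outside it (such as Cyp28d2, Cyp6v1, Cyp4p2, Cyp317a1 and some of the genes with no signal) are named as extremes, neighbours or members of a counted set, after their values were seen.

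A single limma model (version 3.58.1, R 4.3.3) held the means of all 4 groups, with 8 residual and 5.28 prior degrees of freedom, and its two-sided tests had Benjamini-Hochberg adjustment over all 13966 probe sets. Alternatives were a fit on the arrays of a comparison alone, array weights, an intensity trend with a robust prior, array medians subtracted, a filter on dim probe sets, the mean of a gene's probe sets, omission of the 2-h and 14-h arrays or of each array in turn, and a block by position in the phase; the omission of the CA 6-h, AA 2-h and AA 6-h arrays was added after the data were seen. Errors of differences are SE from limma. Arrays of the same hour did not deviate together on both days (correlations -0.23 to 0.25). The fits were first tested on simulated data with known differences.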

Additional observations from a re-analysis of the deposited data

Results flagged for a closer look

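For each of the 37 genes of the naming rule, the highest and the lowest array among the 6 arrays of each day and among the 9 arrays at 25 °C were set against the nearest other array. In 15 of 111 such checks the gap was above Dixon's critical value. Chance flags about 1 in 20 groups, but this rate does not apply to genes of which many were chosen for a large range or a low p, and the checks share arrays. Of the 15, 8 lay on the CA 18-h array, 5 on the AA 2-h array, 1 on the CA 6-h array and 1 on the AA 14-h array.

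The CA 18-h array was far below the others for Cyp12a4 (6.995, next value 7.31) and Cyp12b2 (6.91, next value 7.46), both mitochondrial, on the CA day and again among the 25 °C arrays. It was also far below for Cyp4e2, at 8.24, with a next value of 8.75 on the CA day and 8.85 among the 25 °C arrays. Among the 25 °C arrays it was far below for Cyp4d21 (5.61, next value 6.45) and Cyp4p1 (5.58, next value 6.34).

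The AA 2-h array was far below the other arrays of its day for 5 Cyp6a genes. Cyp6a9 was at 6.36, with a next value of 6.98. Cyp6a20 was at 6.68 and next at 7.07, Cyp6a21 at 4.33 and next at 4.603, Cyp6a23 at 5.71 and next at 6.14, and Cyp6a13 at 6.79 and next at 7.12. Of these, Cyp6a9, Cyp6a20 and Cyp6a21 lie next to each other in the genome, and their probe sequences were not analysed here.

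Cyp4g1 was at 8.29 on the CA 6-h array, with a next CA value of 4.66. Some gut markers were raised on that array too, and the part of gut tissue in the value was not tested. Cyp6a19 was at 4.08 on the AA 14-h array, with a next value of 3.81 among the 25 °C arrays.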

How the results depend on the processing

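In each of the 8 tests 0 P450 genes passed the threshold in limma, and 155 of 160 counts recomputed under the alternatives were again 0. Omitting the 2-h and 14-h arrays gave 2 genes for CA cold against CA warm and 2 for the 18 °C against the 25 °C arrays, Cyp4e3 and Cyp6w1 in both. With single arrays left out, the count ran from 0 to 1 for 18 °C against 25 °C, with Cyp6w1 at -0.68 (adjusted p = 0.0362) without the CA 2-h array. For the hour of day it also ran from 0 to 1. There Cyp4g1 passed when the CA 2-h array was left out (adjusted p = 0.0119) or the AA 2-h array (adjusted p = 0.0303). Cyp4g1 was low on the CA 2-h array and high on the AA 2-h array. On each day it was highest on the 6-h array, where some gut markers were raised. The cause was not tested. The other 6 counts stayed at 0 whichever array was left out. Of 5314 recomputed values for single genes, 5 newly passed the threshold and 0 lost a call. Differences below the threshold have no settled direction, and 267 recomputed values had the opposite sign. Of these, 8 belonged to differences above 0.2 in size. Beside those of Cyp4g1 in the CA and AA comparisons, given above, the CA minus AA difference of Cyp4g1 was -0.87 and became 0.03 without the AA 6-h array and 0.30 without the CA 6-h, AA 2-h and AA 6-h arrays. Without the CA 18-h array, Cyp4d21 changed sign to -0.03 in the CA comparison, where it was 0.39, and Cyp4p1 to 0.02 between the warm phases, where it was -0.32. Cyp6a23 was -0.02 without the CA 10-h array at 18 °C against 25 °C, where it was 0.23. The replicate block by position in the phase gave 0 genes in all 7 group comparisons; arrays of one position had residual correlations of -0.42, 0.01 and 0.31, so positions did not pair the samples. Omitting the CA 6-h, AA 2-h and AA 6-h arrays, chosen after seeing the data, gave 0 in all 8 tests; it leaves 1 AA subjective cold array, assumed to vary like the other groups. The 27 genes never above all unspiked controls allow no reading of small differences.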

Other observations

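Among the genes of the naming rule not described above, Cyp305a1, a CYP2 clan gene, lay between 7.07 and 7.30 on the 12 arrays, and Cyp9c1 between 5.28 and 5.70, with its highest value on the AA 22-h array. Cyp28c1 was highest on the CA 18-h array, at 5.88, and next on the AA 18-h array, at 5.70. Cyp6a23 was at 6.85 on the CA 10-h array and between 5.71 and 6.36 on the other 11, and Cyp6d5 was highest on the same array, at 10.76. Between the CA cold and the AA subjective cold phases Cyp4d1 differed by -0.22 (SE 0.11) and Cyp311a1 by -0.18 (SE 0.09), with an adjusted p of 0.9999 for both in limma. The mitochondrial gene Cyp49a1 had a range of 0.30 over the 12 arrays, below the brightest unspiked control throughout.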
